A study of Homo sapiens with 12 samples.

Results

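The genes described here encode the core of the TGF-beta signalling pathway: the ligands TGFB1, TGFB2 and TGFB3, the receptors TGFBR1 and TGFBR2, the signal transducers SMAD2, SMAD3 and SMAD4, and the inhibitors SMAD7 and SKIL. These 10 of 20037 protein-coding genes were taken by name, and an accessible site was assigned to a gene when its summit lay inside the gene or within 10 kb of it. Every gene had at least 1 such summit, as did 89.8% of all coding genes, and the rule gave 62 of the 188019 summits in the list, in 54 intervals. Accessibility was measured by ATAC-seq, in which a transposase cuts open chromatin, in HT1080, an established human fibrosarcoma cell line. The cells had migrated for 48 h in rat tail collagen gels of 3 concentrations, labelled low (0.3 mg/mL), medium (1 mg/mL) and high (1.7 mg/mL), and each of these groups had 4 libraries. All 12 libraries came from cells given 20 µM GM6001, an inhibitor of matrix metalloproteinases. The deposited values are a single peak list with no column for a library or a concentration, so they are given for the pooled list, with no replicates, no sequencing depth per library and no comparison between concentrations. In pooled cells, a site that is less open in every cell and a site that is open in fewer cells cannot be told apart.

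TGF-beta ligands are secreted in a latent form and, once released, bind TGFBR2, which then phosphorylates and activates TGFBR1. TGFBR1 phosphorylates SMAD2 and SMAD3, which join SMAD4, enter the nucleus and bind DNA, usually together with other transcription factors. SMAD7 blocks the receptors and SKIL represses the SMAD complex, and both genes are themselves known to be induced by the pathway. In mesenchymal cells the pathway is known for driving the production of matrix and for its part in motility and invasion.

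All 10 genes had an accessible site within 1000 bp of a start listed by RefSeq, and 13207 of 20037 coding genes did (65.9%). For genes with no start in the promoter table either gene end was used; among the 15842 coding genes with a listed start the share was 67.6%. By enrichment near any listed start, the receptor genes had the strongest sites and the ligand genes the weakest. Enrichment, the ratio of the fragment pileup at the summit to the local background that the peak caller used, was 18.5 at TGFBR2 and 16.2 at TGFBR1, and it ranged from 5.67 to 9.55 at the ligands. Over the 10 genes the median was 11.7, beside 11.9 for all coding genes with such a site. TGFBR2 lay above 98.7% of those genes, and TGFBR1 above 86.7%. By pileup alone the order differed. SKIL (2260) was above TGFBR2 (2027), and the ligands TGFB1 (1234) and TGFB3 (589) were above SMAD3 (479). With the first listed start alone, the enrichment of SMAD7 (8.46) was below that of TGFB1 (9.55). The 10 genes had a median of 4 summits each, beside 3 for all coding genes, and 4.35 summits per 100 kb of gene and flanks, beside 5.89.

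A measure of depth can be read from the list itself. The pileup (taken here as the number of overlapping fragments at the summit) and the background were solved from the enrichment and p-value of each line. All 62 pileups came out whole. The unit that the peak caller counted is not stated, and the values in fragments and the Poisson intervals rest on this reading. They ranged from 39 to 2260 fragments. The 95% intervals below are exact Poisson intervals of the pileup with the background held fixed. They cover counting error only and not the spread between libraries. None of the 12 libraries is labelled as a control, and how the background was computed is not stated. Whether wide or clustered sites raised their own background, and so lowered their enrichment, was not tested. The background was above the lowest value of the list, 20.3 fragments, at 56 of the 62 summits. In the whole list, 53.0% of the lines were at that lowest value. As a check of the labelled cell type, 7 of 8 mesenchymal marker genes had a site near a start (enrichment 6.64 to 15.1), with THY1 the exception. A site was also counted for 2 of 7 epithelial markers, EPCAM (2.11) and KRT18 (1.75), and for 1 of 4 endothelial markers, CLDN5 (1.70). Of 5 haematopoietic markers 2 had one, CD3E (14.5) and SPI1 (8.44), while CDH1, PTPRC and PECAM1 had none. The 7 mesenchymal genes had listed starts. EPCAM, KRT18, CLDN5, CD3E, SPI1 and THY1 had none, so either gene end was used for them. Their sites need not lie at a start, and the groups are not compared by 1 rule.

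**Figure D1:**
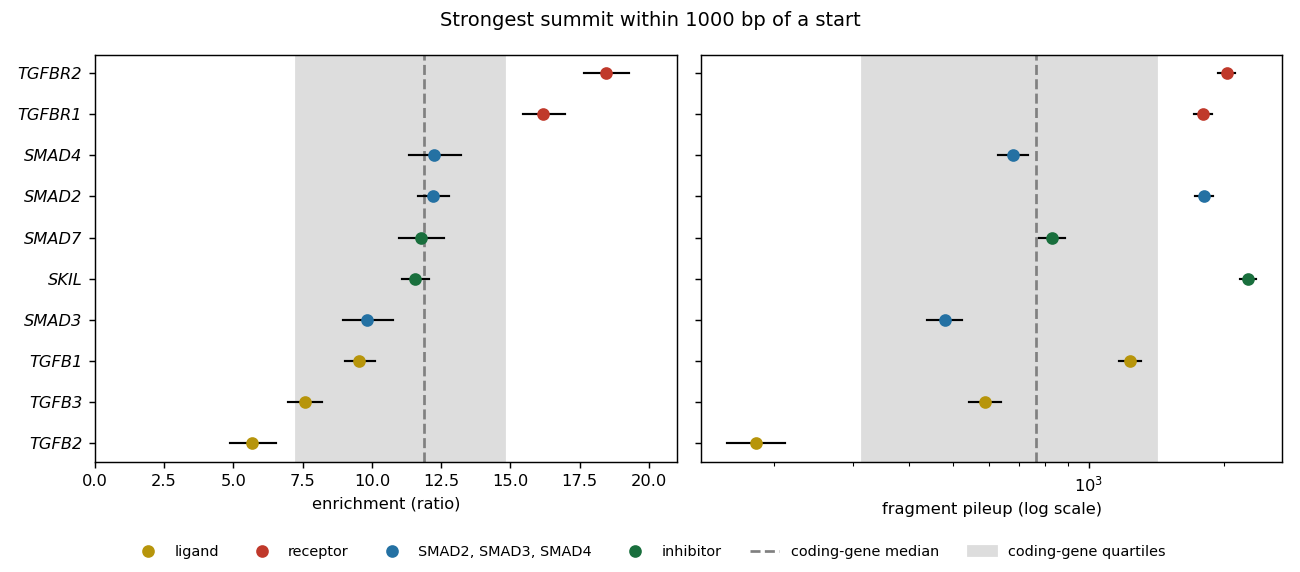
For each gene, the site of highest enrichment within 1000 bp of a listed start: enrichment (left, ratio) and fragment pileup (right, log axis), points coloured by role, bars for the 95% Poisson interval. The grey band and dashed line give the quartiles and median of all coding genes with such a site; TGFBR2 and TGFBR1 lie to the right of the band for enrichment and TGFB2 to the left of it.

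The sequences before the starts are shown because the genes other than TGFB3 and SMAD7 had a called interval that covered the first start in the table. The runs can reach past the edge of that interval, and those of TGFB3 and SMAD7 before the first start lay outside any interval assigned to these genes. Each run gives, 5′ to 3′, the 250 bases before the first listed start (RefSeq, GRCh38.p14), on the strand of the gene. Capitals mark matches, on either strand, to 9 motifs: TGANTCA (AP-1), TGACGTCA (cyclic AMP response element), GTCTAGAC (the palindrome bound by SMAD proteins), CAGACA (core of the CAGA box of SMAD-responsive promoters), GGCGCC (a GC-rich SMAD motif), GGGCGG (GC box), CCAAT (NF-Y), CACGTG (E-box) and CATTCC (TEAD). The last pair of runs belongs to starts further inside SMAD3 and SMAD7 that had a summit within 100 bp of them.
TGFB1, chr19:41353923-41354172, minus strand: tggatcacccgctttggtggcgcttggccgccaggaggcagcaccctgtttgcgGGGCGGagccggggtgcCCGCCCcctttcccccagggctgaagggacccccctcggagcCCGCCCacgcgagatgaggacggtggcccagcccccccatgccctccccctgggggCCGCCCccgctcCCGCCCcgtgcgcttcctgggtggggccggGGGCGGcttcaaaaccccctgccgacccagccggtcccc
TGFB2, chr1:218345086-218345335, plus strand: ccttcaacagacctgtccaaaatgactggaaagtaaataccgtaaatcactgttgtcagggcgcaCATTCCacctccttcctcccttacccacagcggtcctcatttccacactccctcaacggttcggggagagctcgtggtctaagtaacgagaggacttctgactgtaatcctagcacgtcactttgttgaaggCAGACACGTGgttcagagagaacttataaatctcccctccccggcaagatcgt
TGFB3, chr14:75983012-75983261, minus strand: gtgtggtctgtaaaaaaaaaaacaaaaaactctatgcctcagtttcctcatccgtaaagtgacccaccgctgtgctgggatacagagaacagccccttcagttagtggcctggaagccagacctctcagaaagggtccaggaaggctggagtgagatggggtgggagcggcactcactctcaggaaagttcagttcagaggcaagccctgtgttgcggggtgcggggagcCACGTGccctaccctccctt
TGFBR1, chr9:99104863-99105112, plus strand: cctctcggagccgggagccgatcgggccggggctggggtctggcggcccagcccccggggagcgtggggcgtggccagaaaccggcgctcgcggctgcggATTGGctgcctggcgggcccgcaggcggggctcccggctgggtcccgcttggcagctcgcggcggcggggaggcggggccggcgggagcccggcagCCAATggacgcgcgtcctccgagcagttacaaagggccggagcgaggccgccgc
TGFBR2, chr3:30606106-30606355, plus strand: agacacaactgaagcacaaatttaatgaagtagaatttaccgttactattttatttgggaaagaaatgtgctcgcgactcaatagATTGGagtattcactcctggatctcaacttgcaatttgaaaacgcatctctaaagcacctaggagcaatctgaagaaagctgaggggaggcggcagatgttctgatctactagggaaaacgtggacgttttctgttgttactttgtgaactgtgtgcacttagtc
SMAD2, chr18:47930873-47931122, minus strand: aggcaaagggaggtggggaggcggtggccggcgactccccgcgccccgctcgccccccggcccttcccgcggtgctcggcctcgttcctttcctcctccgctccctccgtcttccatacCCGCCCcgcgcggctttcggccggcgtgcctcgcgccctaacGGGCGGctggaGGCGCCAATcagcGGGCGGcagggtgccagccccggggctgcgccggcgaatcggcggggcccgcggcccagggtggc
SMAD3, chr15:67065352-67065601, plus strand: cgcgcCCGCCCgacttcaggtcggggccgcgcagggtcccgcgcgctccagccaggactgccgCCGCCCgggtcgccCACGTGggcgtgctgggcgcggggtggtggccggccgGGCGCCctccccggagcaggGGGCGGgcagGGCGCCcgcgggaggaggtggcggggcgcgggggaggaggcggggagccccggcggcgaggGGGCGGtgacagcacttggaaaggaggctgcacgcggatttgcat
SMAD4, chr18:51029963-51030212, plus strand: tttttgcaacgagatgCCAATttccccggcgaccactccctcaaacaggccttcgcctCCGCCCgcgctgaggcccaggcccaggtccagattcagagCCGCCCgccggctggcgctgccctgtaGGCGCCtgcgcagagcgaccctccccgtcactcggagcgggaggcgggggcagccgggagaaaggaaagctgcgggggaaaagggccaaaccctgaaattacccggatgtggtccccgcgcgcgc
SMAD7, chr18:48950966-48951215, minus strand: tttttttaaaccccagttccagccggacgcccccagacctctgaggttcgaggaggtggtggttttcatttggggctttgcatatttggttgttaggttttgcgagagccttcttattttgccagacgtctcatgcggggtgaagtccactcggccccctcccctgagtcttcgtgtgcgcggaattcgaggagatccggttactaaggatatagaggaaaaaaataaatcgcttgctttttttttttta
SKIL, chr3:170357465-170357714, plus strand: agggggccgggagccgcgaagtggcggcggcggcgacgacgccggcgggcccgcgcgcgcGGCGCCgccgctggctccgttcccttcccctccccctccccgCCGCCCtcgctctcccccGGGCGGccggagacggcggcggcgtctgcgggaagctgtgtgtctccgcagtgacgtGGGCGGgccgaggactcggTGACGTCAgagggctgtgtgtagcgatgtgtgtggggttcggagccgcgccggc
SMAD3 internal start, chr15:67125492-67125741, plus strand: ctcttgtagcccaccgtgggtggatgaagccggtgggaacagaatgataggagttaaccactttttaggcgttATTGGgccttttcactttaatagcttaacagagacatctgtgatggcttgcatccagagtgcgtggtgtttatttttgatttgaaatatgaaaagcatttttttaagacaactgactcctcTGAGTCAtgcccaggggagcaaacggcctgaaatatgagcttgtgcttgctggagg
SMAD7 internal start, chr18:48942808-48943057, minus strand: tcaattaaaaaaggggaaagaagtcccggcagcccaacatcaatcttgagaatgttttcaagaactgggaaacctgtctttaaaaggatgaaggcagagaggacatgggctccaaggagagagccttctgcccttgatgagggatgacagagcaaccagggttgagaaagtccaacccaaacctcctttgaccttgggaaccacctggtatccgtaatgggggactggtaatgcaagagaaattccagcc

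The runs before the first starts differed widely in GC content. GC content was 80.8% before SMAD3, 79.6% before TGFBR1, 78.4% before both SMAD2 and SKIL, 76.8% before TGFB1 and 68.4% before SMAD4. It was 54.8% before TGFB3, 50.4% before TGFB2, 48.0% before SMAD7 and 40.8% before TGFBR2. The median over the 10 was 72.6%, and 58% over 35116 windows of the same length in the table. TGFBR2, with the most enriched site of the group, had the lowest GC content before its first start. Its summit lay at 182 bp, inside the gene and outside that run, and the GC content around the summit was not measured.

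The GC box was the commonest motif, found before TGFB1 (6 matches), SMAD3 (4), SMAD2 (3), SKIL (3) and SMAD4 (2). That is 5 of the 10 first starts, and 42.6% of all windows hold it. The GC-rich SMAD motif GGCGCC was present before SMAD2, SMAD3, SMAD4 and SKIL, and in 16.4% of all windows. CCAAT was present before the first starts of TGFBR1, TGFBR2, SMAD2 and SMAD4, once before the internal start of SMAD3 (at -177 to -173), and in 32.0% of all windows. In SMAD2 the CCAAT match shared 2 bases with GGCGCC, from -74 to -73 counted from the start, which is why the capitals run together there.

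The E-box was found before TGFB2, TGFB3 and SMAD3, and in 6.34% of all windows. In TGFB2 it spanned -49 to -44 and overlapped the only CAGACA match of the group, at -53 to -48; CAGACA is in 13.6% of windows. TGFB2 also held the only CATTCC match, a motif in 11.9% of windows. SKIL held the only full cyclic AMP response element, at -54 to -47, and 1.65% of windows have one. The AP-1 motif appeared in none of the 10 runs before the first starts but once before the internal start of SMAD3, at -56 to -50, and in 6.57% of windows. The palindrome GTCTAGAC was in none of the 12 runs and in 0.182% of windows, and neither SMAD7 run held any of the 9 motifs. These are matches of letters, with no measure of binding.

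TGFB1, the most widely expressed of the ligands, occupies 41330323 to 41353922 on chromosome 19 (minus strand, GRCh38). Its strongest site was the interval chr19:41353394-41354298, with the summit at -105 bp (negative distances are upstream of the first listed start). Enrichment there was 9.55 (95% Poisson interval 9.03 to 10.1), with a pileup of 1234 over a background of 128.3 fragments. Among coding genes with a site near a start, TGFB1 lay above 35.9% in enrichment and above 69.4% in pileup. Sites at 1064 and 2376 bp and one further inside, at 11938 bp, had low enrichments, of 1.62, 1.70 and 1.79. Their pileups were 210, 219 and 41 fragments, over backgrounds of 129.2, 128.1 and 22.5. Only the site at 11938 bp was low in pileup as well. Past the end of the gene lay 4 further summits, between 26156 and 31949 bp from the start, with enrichments of 2.74 to 4.48. The one at 28782 bp was within 1000 bp of an end of CCDC97, and the one at the start of TGFB1 was within 1000 bp of an end of B9D2, so neither can be given to TGFB1 alone. No listed start of another gene lay within 1000 bp of either summit, and the interval at -105 bp covered the listed start of TGFB1. TGFB1 had 18.3 summits per 100 kb, above 93.3% of coding genes.

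TGFB2, a ligand best known from development and from fibrotic and mesenchymal tissue, lies at 218345336 to 218444619 on chromosome 1 (plus strand). It had the weakest start of the 10 genes and its strongest site lay inside the gene. The interval over the start, chr1:218344961-218346314, carried 2 summits, at -110 bp with an enrichment of 3.35 (2.75 to 4.05) and at 644 bp with 5.67 (4.89 to 6.55). The start of the antisense gene TGFB2-AS1 lay 452 and 302 bp from them, and ATAC-seq does not tell strands apart. At 32143 bp, in chr1:218377141-218377802, enrichment was 11.1 (9.99 to 12.2) and the pileup 389, compared with 183 at the stronger summit of the start. The intervals do not overlap, and the intragenic site was 1.95 times as enriched. Weaker sites at 24971 and 80588 bp had enrichments of 2.81 and 3.61.

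TGFB3 lies at 75958097 to 75983011 on chromosome 14 (minus strand) and had 2 summits. The one in chr14:75981865-75982979, at 562 bp, had an enrichment of 7.57 (6.98 to 8.21), from a pileup of 589. The interval ended short of the first listed start, and the summit lay between the listed starts of the gene, at -454 bp from the one further downstream. The other, at -2837 bp with an enrichment of 4.17, was 85 bp from the start of IFT43, a gene of ciliary transport. No site was called inside the gene beyond the starts.

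TGFBR1, the type I receptor kinase, lies at 99103647 to 99154192 on chromosome 9 (plus strand), and RefSeq lists 8 starts for it. Its main interval, chr9:99104553-99105191, reached 16.2 (15.4 to 17.0) in enrichment and 1793 fragments in pileup at -165 bp. A second, much weaker interval followed at 494 bp, with an enrichment of 2.49, 32 bp from another listed start. The rest of the gene held 1 site, at 22750 bp, with 2.91.

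TGFBR2, the ligand-binding type II receptor, lies at 30606356 to 30694142 on chromosome 3 (plus strand). It had the most enriched site of the 62, in chr3:30606197-30607135, with an enrichment of 18.5 (17.7 to 19.3), from a pileup of 2027 over a background of 108.9 fragments. The summit lay 63 bp before the second listed start, and 386 bp from a start of LOC105377015, an uncharacterised locus annotated as coding. Inside the gene were 10 further summits. The strongest were at 75577 bp (7.69), at 53211 bp (7.56) and at 82939 bp (6.61), and a site at -8930 bp had 4.88. An interval of several weak summits at 65653 to 66568 bp ranged from 1.69 to 2.14 with pileups of 39 to 49; at a −log10 q of at least 10 these drop out and 7 of the 12 summits of the gene are left. The gene had 12 summits, more than 93.8% of coding genes, and 11.1 per 100 kb, above 76.8% of them.

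**Figure D2:**
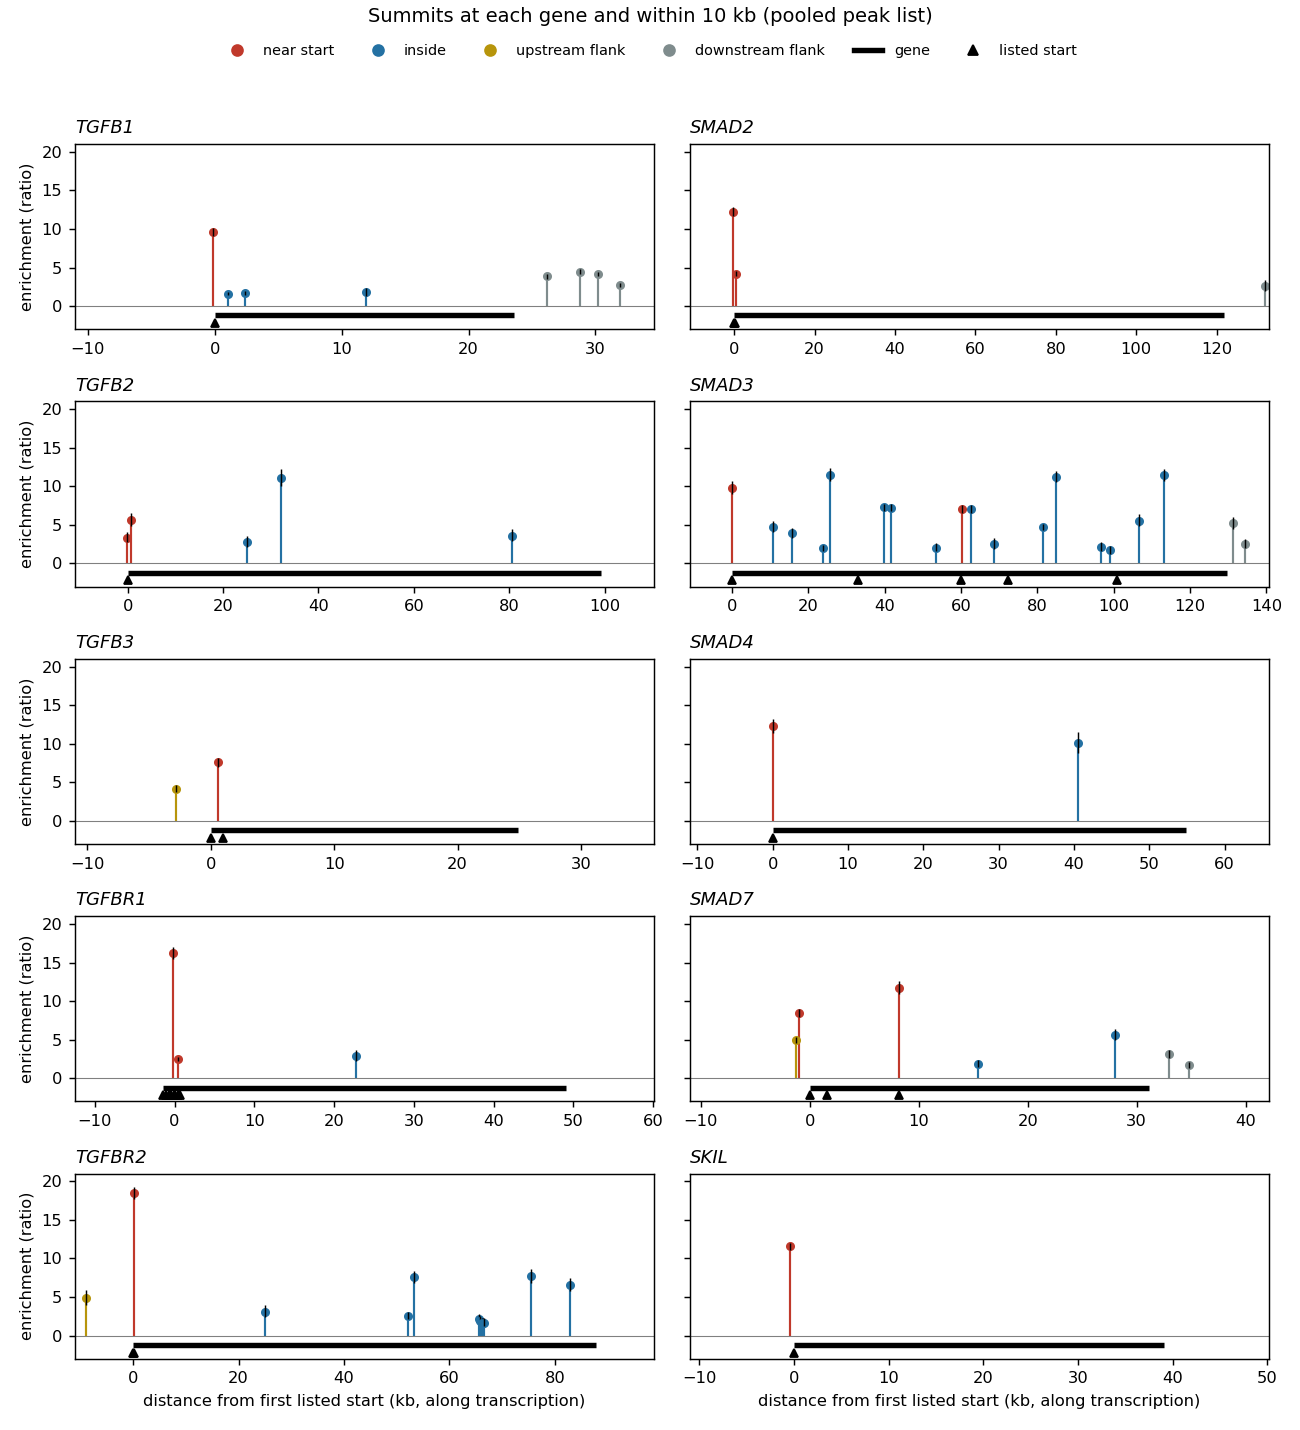
Enrichment (ratio) of each summit against its distance from the first listed start (kb, in the direction of transcription) for the 10 genes, with 95% Poisson intervals; the bar is the gene and triangles are listed starts. SKIL and TGFB3 have sites around the start only, whereas SMAD3 carries sites along the whole gene and TGFB2 has its strongest site at 32143 bp.

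SMAD2 and SMAD3 are the SMADs that the receptor phosphorylates, and their accessible sites were arranged in opposite ways. SMAD2 (chromosome 18, 47808957 to 47930872, minus strand) is 121916 bp long and SMAD3 (chromosome 15, 67065602 to 67195169, plus strand) 129568 bp. SMAD2 had 3 summits, 2 of them in the interval over its starts, and SMAD3 had 19.

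In SMAD2 the interval chr18:47930153-47931623 had its main summit at -271 bp, where enrichment was 12.2 (11.7 to 12.8) and the pileup 1808. A shoulder at 365 bp had 4.21. No site was called inside the gene outside that interval. The third summit was 10000 bp past the end of the gene, exactly at the limit of the window, with an enrichment of 2.64, from a pileup of 58. Just outside the window, at 10158 bp from TGFB1, a summit of enrichment 12.2 and pileup 1640 was not counted.

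SMAD3 had more summits than 97.95% of coding genes and 12.7 per 100 kb, above 82.0% of them. At the first start the interval chr15:67065526-67066080 had an enrichment of 9.83 (8.97 to 10.7), from a pileup of 479. Sites further in were as enriched or more: 11.5 (10.7 to 12.4) at 25795 bp, 11.3 (10.6 to 12.0) at 85021 bp and 11.4 (10.6 to 12.2) at 113166 bp. The lower bounds of these 3 intervals lie just below the upper bound of the start, so the intervals overlap narrowly. In pileup they had 705, 1070 and 785 fragments, all above the 479 of the start. Of the 19 summits of SMAD3, 12 were above the median of the whole list, 4.27.

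RefSeq lists 5 starts for SMAD3, and 2 of them had a summit within 1000 bp. The internal start at 60140 bp had a summit 89 bp away, with an enrichment of 7.01 (6.50 to 7.54), from a pileup of 706. It was followed at 62544 bp by another of 7.05, and a pair of sites of 7.27 and 7.20 lay at 39935 and 41555 bp. The site at 81483 bp, with 4.72, lay 146 bp from the start of the antisense gene SMAD3-AS1. The last summit, in the downstream flank, was within 1000 bp of an end of AAGAB.

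SMAD4, the shared partner of the phosphorylated SMADs, lies at 51030213 to 51085042 on chromosome 18 (plus strand). It had 2 summits, both above an enrichment of 10. The interval over the start, chr18:51029670-51030828, had an enrichment of 12.3 (11.3 to 13.2), from a pileup of 681 at -27 bp, 92 bp from a start of the long noncoding RNA gene LOC107985152. The site at 40563 bp, in chr18:51070530-51071066, had an enrichment of 10.1 (8.83 to 11.6) from a pileup of 215. Its background was at the list minimum of 20.3 fragments, and that of the start was 54.7. The enrichment intervals overlap, while the pileup at the start was higher.

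SMAD7, which competes with SMAD2 and SMAD3 at the receptor, lies at 48919853 to 48950965 on chromosome 18 (minus strand). As at TGFB3, no called interval covered the first start. The nearest interval, chr18:48951476-48952974, had summits at -1000 bp (8.46, 7.95 to 8.99, pileup 1021) and at -1278 bp (4.94), and the first of these was counted near the start only because the limit is 1000 bp. The strongest site by enrichment, 11.8 (11.0 to 12.6) with a pileup of 830, was in chr18:48942408-48943181, 20 bp from an internal start that lies 8158 bp inside the gene. By pileup the upstream site was the higher of the pair. A site at 27988 bp, near the far end of the gene, had 5.65.

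SKIL, also called SnoN, a corepressor of SMAD complexes, lies at 170357715 to 170396849 on chromosome 3 (plus strand). It had 1 summit, and that summit had the highest pileup of all 62; 10.2% of coding genes had no summit at all. The interval chr3:170356780-170358338 was 1559 bp long, the longest at these genes, with its summit at -395 bp. The pileup was 2260 and the background 194.6 fragments, the highest of the group, and the enrichment was 11.6 (11.1 to 12.0). Among coding genes with a site near a start, SKIL lay above 47.8% by enrichment and above 90.2% by pileup.

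**Figure D3:**
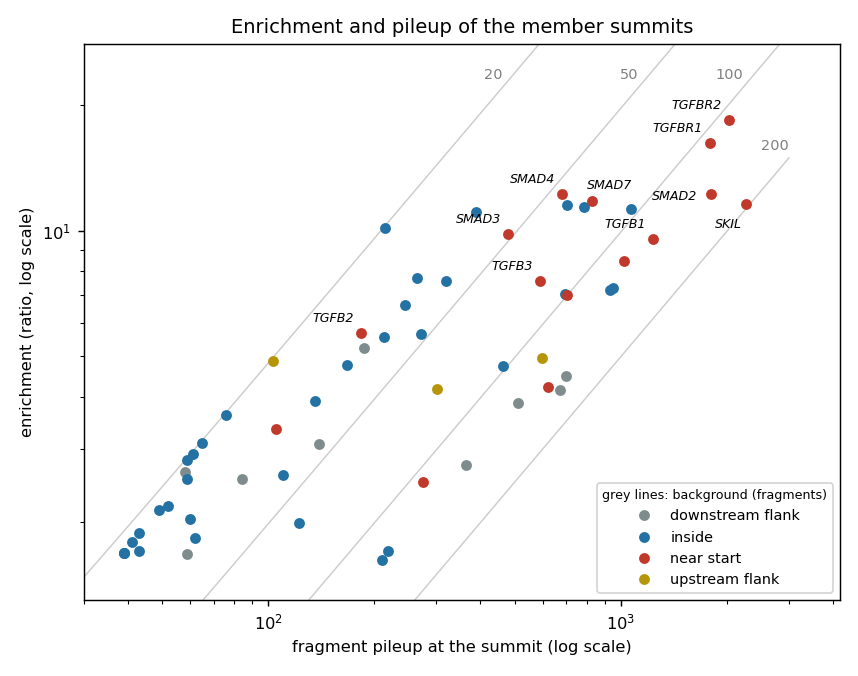
Enrichment (ratio, log axis) against fragment pileup (log axis) for the 62 summits, coloured by position; grey lines join summits of equal background, and each gene name marks its strongest site near a start. TGFBR2 and SKIL had pileups of 2027 and 2260 but backgrounds of 108.9 and 194.6 fragments, which sets SKIL lower in enrichment.

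Ordered by enrichment at the start, the genes ran TGFBR2, TGFBR1, SMAD4, SMAD2, SMAD7, SKIL, SMAD3, TGFB1, TGFB3 and TGFB2. Neighbours whose Poisson intervals overlap were SMAD4 and SMAD2, SMAD2 and SMAD7, SMAD7 and SKIL, and SMAD3 and TGFB1; the others were apart by more than counting error. The ligands ranged from 5.67 to 9.55 and the other 7 genes from 9.83 to 18.5. This separation held for the strongest site near any listed start. With the first start alone, SMAD7 had 8.46, below TGFB1. In pileup the order began with SKIL, TGFBR2 and SMAD2 and ended with TGFB3, SMAD3 and TGFB2, and the pileup of TGFB1 (1234) was above those of SMAD7, SMAD4 and SMAD3.

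By position, 15 of the 62 summits (24.2%) lay near a start, 35 (56.5%) elsewhere inside a gene, 3 in the upstream flank and 9 in the downstream flank. None lay within 1000 bp of the far end of a gene. At all coding genes with a listed start, 19.1% of summits were near a start, 49.9% inside and 2.92% near the end. The median enrichment was 9.55 near the starts of the 10 genes and 3.10 inside them, beside 10.6 and 3.80 at all such coding genes. TGFB2 and SMAD3 were the 2 genes whose strongest site lay away from any listed start, by enrichment and by pileup. Among coding genes with a site near a listed start the share was 33.8% by enrichment and 31.4% by pileup, so 2 of 10 is not above that share.

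**Figure D4:**
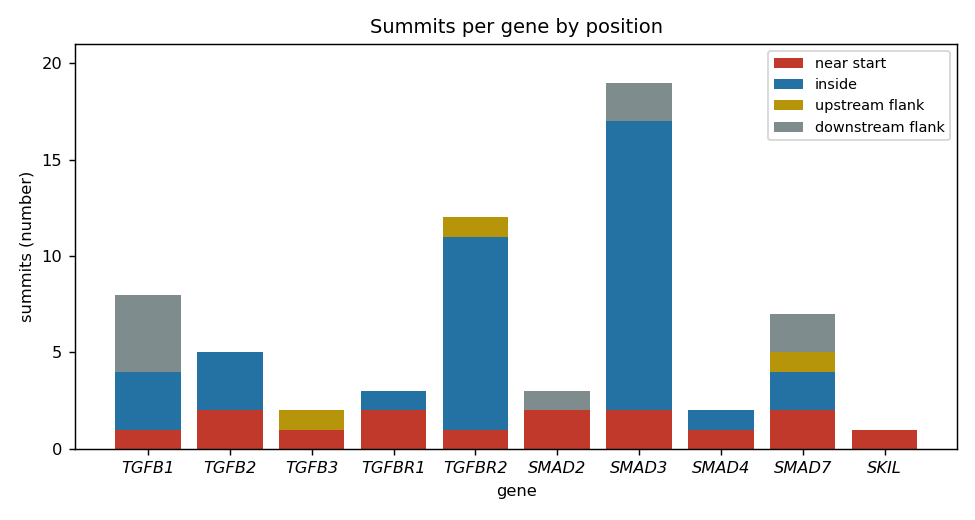
Number of summits per gene, stacked by position (near a start, elsewhere inside, upstream or downstream flank within 10 kb). SMAD3 has 19 and TGFBR2 has 12, mostly inside the gene, while SKIL has 1.

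The wider pathway was described with a list of 54 further genes sorted by role. Of these, 44 (81.5%) had a site near a start, beside 65.9% of all coding genes, with a median enrichment of 9.95. The gap depended on how starts were counted. With the first listed start only, the shares were 70.4% and 63.6%, and with either gene end they were 70.4% and 65.7%. Within 500 bp of any listed start they were 75.9% and 61.5%. All 12 genes of corepressors, inhibitors and adaptors had one, with a median of 12.7; the highest were STRAP (15.6), which holds SMAD7 at the receptor, and SKI (14.7), the relative of SKIL. All 9 receptors for activin, nodal and bone morphogenetic proteins had one too, with a median of 11.7 and the highest values at ACVR2A (14.7) and BMPR2 (14.0). None of these 9 reached the enrichment of TGFBR1.

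Other ligands were again lower, with a median of 5.78 among those with a site. Of 5, GDF15 had 10.3, BMP2 6.49, INHBA, which encodes an activin subunit, 5.08 and BMP4 3.80, and NODAL, a ligand of the early embryo, had no site near its start. Among the other SMADs, SMAD5 had 16.1, SMAD1 9.62 and SMAD9 5.10, and SMAD6, the inhibitor related to SMAD7, had 6.33 with a pileup of 1004. Both co-receptors had a site, TGFBR3 with 13.9 and ENG with 6.51. Low values were not particular to ligands. Among genes with a site, medians were 7.98 for other SMADs, 8.18 for latency and activation and 8.68 for targets. The median of all coding genes with such a site was 11.9.

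The genes of latency and activation had the lowest share, 5 of 11. ITGAV, the integrin chain that binds latent TGF-beta, had 14.7 and LTBP1, a latent TGF-beta binding protein, 13.6. No site near a start was listed for LTBP2, LTBP3, LTBP4, LRRC32, NRROS or ITGB6, although each had at least 1 elsewhere in the gene or its flanks. Among 11 target genes 8 had a site, with the highest value at FN1 (fibronectin, 15.1). TGFBI and COL1A1 had no site near a start, and CDKN2B, an inhibitor of the cell cycle on chromosome 9, was the 1 gene of the list with no summit inside it or within 10 kb. A peak list does not measure DNA copies, and the copy number of CDKN2B was not tested. The absence of a summit there is therefore not a measure of closed chromatin.

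**Figure D5:**
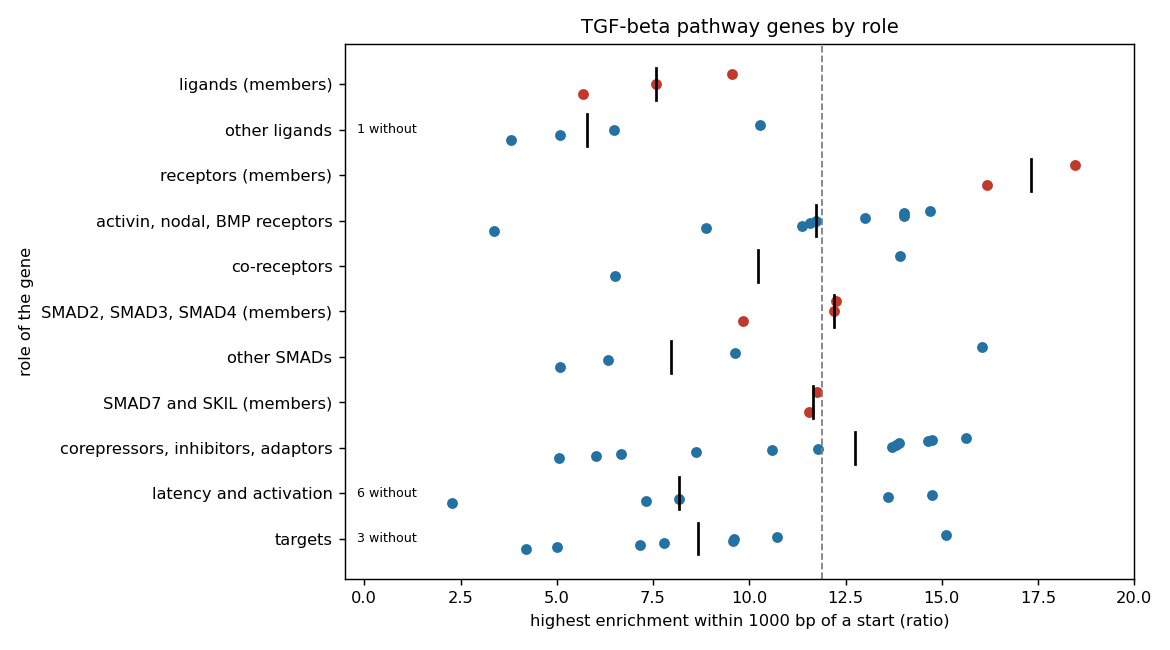
Highest enrichment (ratio) within 1000 bp of a start for the 10 genes (red) and the 54 further pathway genes (blue), by role; short black lines are medians, the dashed line is the median of all coding genes, and text gives the number of genes with no such site. Ligands in both sets lie left of the dashed line, and the receptors TGFBR1 and TGFBR2 lie right of every other group.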

How the data were processed

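ATAC-seq was done on 12 libraries of HT1080 cells. Per the submitters' processing notes, fastp 0.20.0, Bowtie2 2.4.3, SAMtools, deepTools 3.5.0 and MACS2 2.2.7.1 were used on build hg38; roles and settings, the treatment of duplicates and the pooling of libraries are not given in the sources used here. The deposited list has 10 columns and 188019 lines. The enrichment is the authors' ratio of pileup to local background, the score is the authors' integer score per line, and deposited p-values and q-values are on the −log10 scale, with a lowest −log10 q of 1.30 (q = 0.0500). The deposited enrichment describes and ranks peaks within this list.

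Summits (interval start plus offset) were matched to RefSeq genes (GRCh38.p14) with Python 3.11.15, pandas 2.3.3 and scipy 1.17.1. All 10 genes and all 54 list genes matched; of 20037 coding genes 15842 had a start in the promoter table. Pileup and background were solved from enrichment = (pileup + 1)/(background + 1) and a Poisson upper tail. This model is stated in no label. It gave whole pileups, within 0.05, in 99.96% of lines. On data simulated with the same model the solving step returned 100% of 5000 pileups, which checks the arithmetic and not the model. No exon annotation was used. No test between groups was run, since no column names a library. The genes named were all 10 genes and, from the pathway list, the 2 highest per role and every gene with no summit; other list genes were named after their values were seen. Some genes of the list are not reported here by name. The genes, lists and motifs were chosen with earlier results of these data known. Alternatives for the windows, the threshold and the counting of intervals are given at the end.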

Additional observations from a re-analysis of the deposited data

How the results depend on the processing

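Of 49 recomputed totals and medians under other windows, thresholds and ways of counting, 48 stayed within 1.5 times (counts) or within the 95% binomial interval of the median, and 1 did not: a window of 50 kb gave 107 summits at the 10 genes in place of 62. Some could not move by design. The limit of 10 kb on interval length removed nothing at the 10 genes, whose longest interval was 1559 bp. A wider start limit could not lower 10 of 10 genes. The interval of the median enrichment, 3.08 to 5.67, treats summits of 1 gene as independent. The median of 5.60 at a −log10 q of at least 10, beside 4.35, was counted as within it. The number of genes with a site near a start was 10 under each alternative except the use of either gene end in place of the starts, which gave 9. The use of the first listed start only, and the limit to coding genes with a listed start, were chosen after seeing the data. Among 158 recomputed values of single genes 23 moved further. These counts leave out SKIL under the gene body alone, because its only summit lay before the gene. Under the gene body alone the highest enrichment was 1.79 at TGFB1, 4.21 at SMAD2 and 10.1 at SMAD4. Their strongest start summits lay before the gene. Without summits near an end of another coding gene, the highest enrichment at TGFB1 was 4.15 and at TGFBR2 7.69, because their start sites were then left out. No paired analysis was possible because the list has no column for a library, and for the same reason no replicate could be left out. Depth limits single weak sites: at a pileup of 39 the enrichment of 1.69 had a 95% Poisson interval of 1.21 to 2.29.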
